A study of Homo sapiens with 2 samples.

Results

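The 49 genes described here are developmental homeobox genes that lie outside the HOX clusters, 49 of 20056 protein-coding genes in the RefSeq annotation of GRCh38.p14. They were chosen by name, from the IRX, LHX, ALX, OTX, PITX, EN, EMX, NKX, BARX, DLX, MSX, PAX, CDX, EVX, GBX and GSX families and from the sine oculis homeobox genes (SIX2, SIX3 and SIX6), and each was matched to the annotation by symbol. The names were proposed with earlier results of these data known, although the rule itself uses no peak value. For each gene, the distance from the nearest end of the gene to the nearest edge of a peak was taken, and a gene was counted as having a peak when that distance was at most 1 kb, or, on a wider count, when a peak lay within 3 kb of an end or inside the gene.

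The cells were TFK-1, an established human line from extrahepatic cholangiocarcinoma, a cancer of the bile ducts outside the liver. In LV-HOXA5 cells a lentivirus drove Flag-tagged HOXA5, whereas LV-HOXA5-NC cells, labelled as normal control, carried the corresponding negative control lentivirus, and both were selected with puromycin. CUT & Tag, in which an antibody brings a transposase to a protein on DNA, was done with the same anti-Flag antibody in both, with 1 library per condition. What the control vector expresses, and whether it carries a Flag tag, is not given in the sources used here. As each condition had 1 library, no difference between the conditions was tested. The intervals below are exact 95% intervals that cover counting error only, and neighbouring members are not independent of each other.

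Homeobox genes encode transcription factors that bind DNA through a homeodomain, a small helical domain whose usual core site holds the letters TAAT. HOX genes stand in clusters and pattern the body axis, while the genes outside those clusters pattern the brain, eye, kidney, limb, gut and other organs. Many are silent in adult cells outside their own lineage and have starts rich in CpG, and HOXA5 is itself a homeodomain protein, so that these genes and the overexpressed factor share a family. PAX2 keeps only part of a homeodomain. EVX1 and EVX2 stand beside the HOXA and HOXD clusters without belonging to them. Neither expression nor DNA methylation of the members can be read from the peak lists.

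Promoter windows from 250 bases before to 50 bases after the annotated start were read from RefSeq (GRCh38.p14) for the 31 members that have one in the table used (63.3%). IRX3 and IRX5, the members with a peak, were not among them. The 4 windows printed are those of IRX1 and IRX2, paralogues of IRX3 and IRX5 whose starts had no LV-HOXA5 peak within 1 kb, of LHX9, the nearest member without a peak that has a window, and of EVX1, which stands beside HOXA. They were chosen after the distances were seen. Each is given 5′ to 3′ on the strand of the gene in lower case, with CpG in capitals.
IRX1, chr5:3595582-3595881, plus strand: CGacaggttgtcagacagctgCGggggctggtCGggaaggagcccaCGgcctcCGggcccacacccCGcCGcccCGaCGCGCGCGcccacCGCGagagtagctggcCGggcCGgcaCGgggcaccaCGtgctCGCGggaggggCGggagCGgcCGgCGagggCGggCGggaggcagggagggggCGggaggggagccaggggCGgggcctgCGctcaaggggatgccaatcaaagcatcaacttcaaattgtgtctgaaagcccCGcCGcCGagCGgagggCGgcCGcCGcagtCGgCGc
IRX2, chr5:2751628-2751927, minus strand: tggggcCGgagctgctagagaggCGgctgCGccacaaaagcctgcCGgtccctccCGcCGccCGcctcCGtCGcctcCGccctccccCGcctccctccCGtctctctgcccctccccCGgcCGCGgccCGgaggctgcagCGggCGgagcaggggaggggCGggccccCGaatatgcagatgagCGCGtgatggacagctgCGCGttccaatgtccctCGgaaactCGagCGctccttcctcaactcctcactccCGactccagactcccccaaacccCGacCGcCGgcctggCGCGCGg
LHX9, chr1:197912214-197912513, plus strand: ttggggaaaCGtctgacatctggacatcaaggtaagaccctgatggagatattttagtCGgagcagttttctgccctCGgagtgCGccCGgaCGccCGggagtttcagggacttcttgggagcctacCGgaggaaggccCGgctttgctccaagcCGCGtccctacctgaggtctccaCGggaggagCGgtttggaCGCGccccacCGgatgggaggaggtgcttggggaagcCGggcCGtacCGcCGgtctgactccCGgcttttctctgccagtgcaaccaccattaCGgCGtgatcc
EVX1, chr7:27242552-27242851, plus strand: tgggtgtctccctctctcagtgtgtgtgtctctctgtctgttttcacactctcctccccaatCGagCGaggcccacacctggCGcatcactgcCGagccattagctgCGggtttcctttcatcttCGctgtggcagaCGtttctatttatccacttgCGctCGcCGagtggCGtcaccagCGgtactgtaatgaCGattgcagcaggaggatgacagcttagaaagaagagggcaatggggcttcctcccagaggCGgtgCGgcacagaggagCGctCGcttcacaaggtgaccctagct

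The IRX1 window held 38 CpG at a GC content of 76% and an observed-over-expected CpG ratio of 0.897, and the IRX2 window held 34 CpG at 73.3% and 0.875. LHX9 had 23 CpG at 62% and 0.801, and EVX1 had 17 CpG at 57% and 0.698. All 4 were therefore CpG-rich, with a ratio of at least 0.6 and a GC content of at least 50%. The core letters TAAT, on either strand, were found 0 times in IRX1 and IRX2, 1 time in LHX9 and 2 times in EVX1. TAATTA and TGATNNAT, the latter a spelling of the joint site of a HOX protein and its PBX partner, were searched on both strands and were in none of the 4. Over the 22199 windows of protein-coding genes, 42.7% held TAAT, 3.39% held TAATTA and 5.21% held TGATNNAT, and TAATTA always contains TAAT. Such a match is no site, and its absence says only that these letters are not in the window. As fewer than 80% of the members have a window, no share over the members is given for CpG or for motifs. Among all windows, an LV-HOXA5 peak lay within 1 kb of the start in 18.6% (18.0% to 19.3%) of the 13316 CpG-rich ones and in 4.35% (3.93% to 4.79%) of the other 8883. The 22199 windows come from 15843 genes, and windows of 1 gene can share a peak. They are therefore not independent, and these intervals may be too narrow.

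In LV-HOXA5 cells, a peak stood within 1 kb of an end at 1 of the 49 members, IRX3 (2.04%, interval 0.0517% to 10.9%), beside 13.1% of the 20007 other protein-coding genes (12.6% to 13.5%). On the wider count, 2 of the 49 had a peak, IRX3 and IRX5 (4.08%, 0.498% to 14.0%), beside 20.8% of the others (20.2% to 21.3%). Neither pair of intervals overlapped. In LV-HOXA5-NC cells, 0 of the 49 members had a peak on either count (an interval of up to 7.25%), beside 0.135% and 0.715% of the others. The control library held 1948734 fragments, 12.4% of the 15778555 in LV-HOXA5, and listed 635 peaks against 8043. Such low shares of the other genes correspond to less than 1 gene in 49, so that a deficit of the members in the control could not be seen at this depth. When only LV-HOXA5 peaks whose fold reached the list median were kept, IRX3 and IRX5 still had theirs, and the others' shares of 6.96% and 11.2% fell inside the members' intervals.

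**Figure D1:**
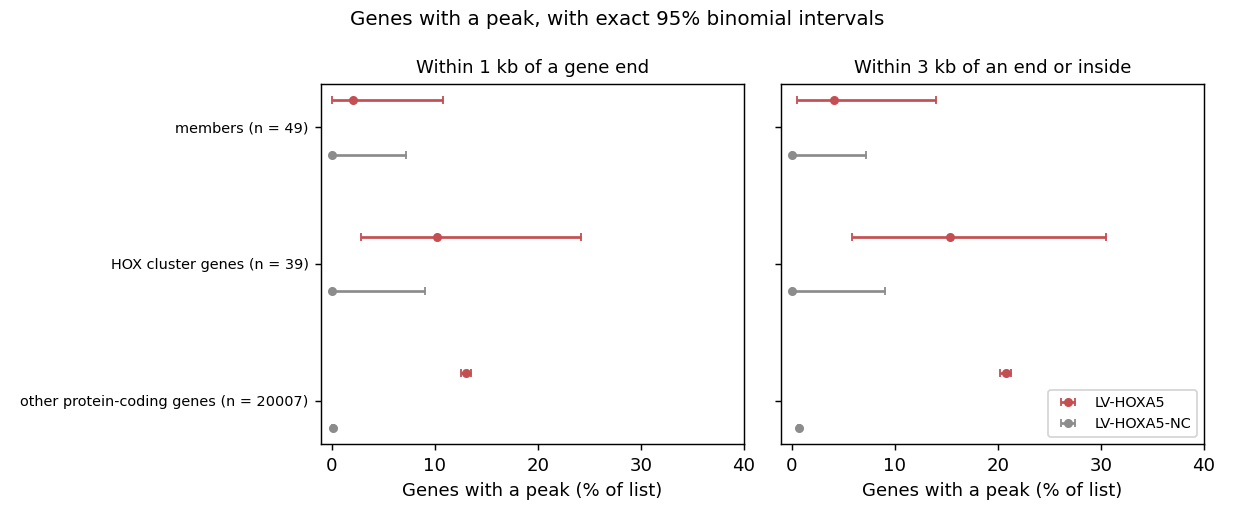
Share of genes with a peak (x axis, % of the list) in the members, the HOX cluster genes and the other protein-coding genes, within 1 kb of a gene end on the left and within 3 kb or inside on the right. Points are shares in the LV-HOXA5 (red) and LV-HOXA5-NC (grey) libraries and bars are exact 95% binomial intervals; the members lie at 2.04% and 4.08% in LV-HOXA5 and at 0 in LV-HOXA5-NC, below the 13.1% and 20.8% of other protein-coding genes in LV-HOXA5.

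The 39 HOX cluster genes had 4 within 1 kb (10.3%, 2.87% to 24.2%) and 6 on the wider count (15.4%, 5.86% to 30.5%). These intervals overlap those of the members and also hold the 13.1% and 20.8% of the other genes. They do not tell the HOX cluster genes apart from either. Genes of a HOX cluster share peaks, and fragments of the lentiviral HOXA5 copy cannot be told apart from the HOXA5 gene, so these counts are not independent loci. In LV-HOXA5-NC cells no HOX cluster gene had a peak on either count, beside background shares of 0.135% and 0.715%.

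Both members with a peak were Iroquois genes, which encode TALE-class homeodomain factors of heart, limb and nervous system development. IRX3 spans 54283304 to 54286787 on chromosome 16. Its LV-HOXA5 peak, at 54286336 to 54286768, lay inside the gene 19 bp from the higher end, was 433 bp long, and had a pileup of 16 fragments at its summit (Poisson interval 9.15 to 26.0). It was enriched 5.04-fold over a local background of 2.37 fragments, with a −log10 q-value of 5.55. IRX5 spans 54930865 to 54934485 on the same chromosome. Its peak, at 54928995 to 54929604, lay 1261 bp before the lower end, outside the 1 kb limit and inside the 3 kb limit, with a pileup of 18 (10.7 to 28.4), a fold of 5.25 over a background of 2.62 and a −log10 q-value of 6.53. The gene nearest to that peak was the long non-coding RNA CRNDE, 109 bp away, so that the peak lay between the 2 genes. The annotation used holds neither strand nor exons, so the peaks are placed by gene end only.

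The IRX3 and IRX5 peaks were of ordinary strength. Across 2114 LV-HOXA5 peaks that stood within 1 kb of a protein-coding gene end, the median pileup was 17 (quartiles 13 to 22) and the median fold 4.87 (4.20 to 5.74). The fold at IRX3 exceeded that of 56.1% of these peaks and its pileup that of 42.6%. The IRX5 peak, 1261 bp from the nearest protein-coding gene end, is not one of the 2114. It stood above 62.9% of them by fold and 54.4% by pileup. No LV-HOXA5-NC peak overlapped either. Scaled by the fragment totals, the pileups would have been 1.98 and 2.22 fragments in a library as deep as the control, under the lowest pileup of 4 in its list. A difference between the conditions at IRX3 and IRX5 therefore cannot be told apart from the difference in depth.

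**Figure D2:**
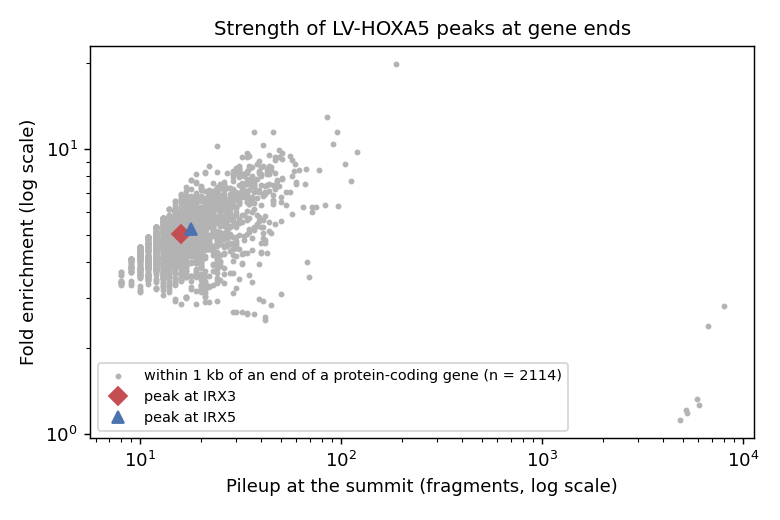
Pileup at the summit (x axis, fragments, log scale) against fold enrichment over the local background (y axis, log scale) for those 2114 gene-end peaks of LV-HOXA5 (grey), with the IRX3 peak (red diamond, 16 fragments, fold 5.04) and the IRX5 peak (blue triangle, 18 fragments, fold 5.25) drawn over them. Both lie in the middle of the cloud, although the IRX5 peak, over 1 kb from any protein-coding gene end, is not one of the 2114. The few points far to the right combine very high pileups with low folds.

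Around IRX3 the LV-HOXA5 peaks were few and overlapped annotated genes, apart from the one before IRX5, which lay 109 bp from CRNDE. Going from RBL2, a relative of the retinoblastoma gene, peaks stood at RBL2 (pileup 18, fold 6.10, 851 kb below the higher end of IRX3), at AKTIP (24, 6.15, 783 kb below), at the shared end of RPGRIP1L and FTO (13, 4.64, 583 kb below) and at 2 places inside FTO (12 and 10, both with a fold of 4.51). The IRX3 and IRX5 peaks came next, 643 kb apart. No further peak was listed as far as IRX6, the third gene of this Iroquois cluster, MMP2 and LPCAT2. The nearest peak of IRX6 was that before IRX5, at 395 kb. No LV-HOXA5-NC peak was listed in this stretch.

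**Figure D3:**
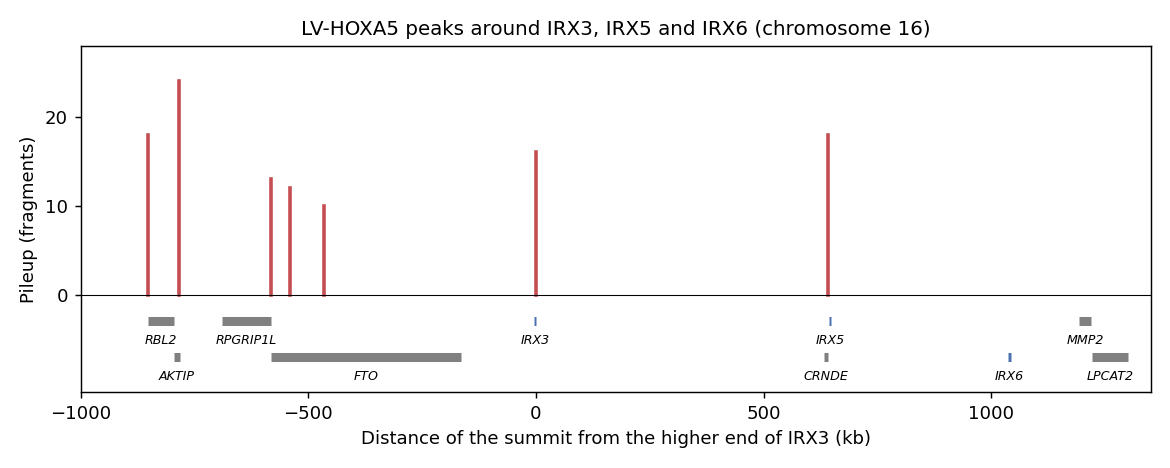
LV-HOXA5 peaks by distance of the summit from the higher end of IRX3 (x axis, kb) and pileup (y axis, fragments, bars from 0), with gene spans below (members in blue, other genes in grey). The 7 peaks have pileups of 10 to 24, and none lies between the IRX5 peak and LPCAT2.

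The other IRX genes, in a cluster on chromosome 5, had their nearest LV-HOXA5 peak at 65.6 kb (IRX2), 184 kb (IRX1) and 258 kb (IRX4), so that the distances in the family ran from 0.019 to 395 kb with a median of 125 kb. IRX4, a ventricle factor of the heart, had its nearest control peak at 337 kb (pileup 22, fold 9.85).

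Among the LIM-homeobox genes, LHX1 came closest. LHX1, needed for kidney and head formation, lay 4.02 kb from a peak (pileup 15, fold 4.39) that covered an end of its neighbour AATF, just beyond the 3 kb limit. LHX9, a gonad factor, lay 9.57 kb from a peak (12, 4.71) that covered an end of C1orf53. Both peaks thus lay on another protein-coding gene and not on the member. The distances of LHX5, LHX2 and LHX8, which act in the forebrain, were 240 kb, 360 kb and 525 kb. Of the paired-like genes, OTX2, required for the forebrain and the eye, lay 11.6 kb from a peak (12, 4.80), PITX1, the hindlimb factor, 123 kb, ALX4, of skull and limb, 194 kb, and OTX1 344 kb. ALX1, a gene of facial development, was the farthest of all members, 2512 kb from its nearest LV-HOXA5 peak.

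Of the sine oculis genes, SIX3, which patterns the forebrain and eye, lay 23.1 kb from a weak peak (pileup 11, fold 3.62), and the same peak was the nearest to SIX2, of nephron progenitors, at 86.6 kb. SIX6, a gene of the retina, lay 137 kb from its nearest peak. The PAX genes ran from 60.8 kb at PAX2, of kidney and optic nerve, over 261 kb at PAX7 and 748 kb at PAX3, both of muscle and neural crest, to 1221 kb at PAX6, of the eye and pancreas, whose nearest peak covered an end of TCP11L1.

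The largest group, 18 genes of the EN, EMX, NKX, BARX, DLX and MSX families, had distances of 32.1 to 698 kb with a median of 280 kb. DLX3, of skin and tooth, was nearest (pileup 15, fold 3.48), and the same peak was the nearest to its neighbour DLX4, at 52.4 kb. EN2, of the midbrain and hindbrain boundary, followed at 49.5 kb. DLX5, of bone and limb, was the farthest in the group and shared its nearest peak, at an end of SLC25A13, with DLX6 at 683 kb. The interneuron genes DLX1 and DLX2 likewise shared a peak, 604 and 590 kb away. NKX2-5 of the heart lay at 175 kb, NKX2-1 of thyroid and lung at 568 kb, and NKX6-1 of pancreatic beta cells at 637 kb. The other genes of the group, EMX1, EMX2, BARX1, EN1, NKX6-2, MSX2, BARX2 and MSX1, which pattern cortex, stomach, hindbrain and skull among other organs, lay between 137 kb (EMX1) and 502 kb (MSX1).

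The 8 CDX, EVX, GBX and GSX genes had distances of 99.1 to 1293 kb with a median of 174 kb. The nearest peak of EVX1 was the one at HOXA5 itself (pileup 44, fold 7.55), a locus where fragments of the lentiviral copy cannot be told apart. CDX1 and CDX2, which set intestinal identity, lay at 133 kb and 340 kb, and CDX2 shared its nearest peak, on POLR1D, with GSX1 at 172 kb. GSX2, of the ventral forebrain, lay at 1293 kb from a peak at TMEM165. GBX1, GBX2 and EVX2 lay at 119 kb, 176 kb and 185 kb.

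**Figure D4:**
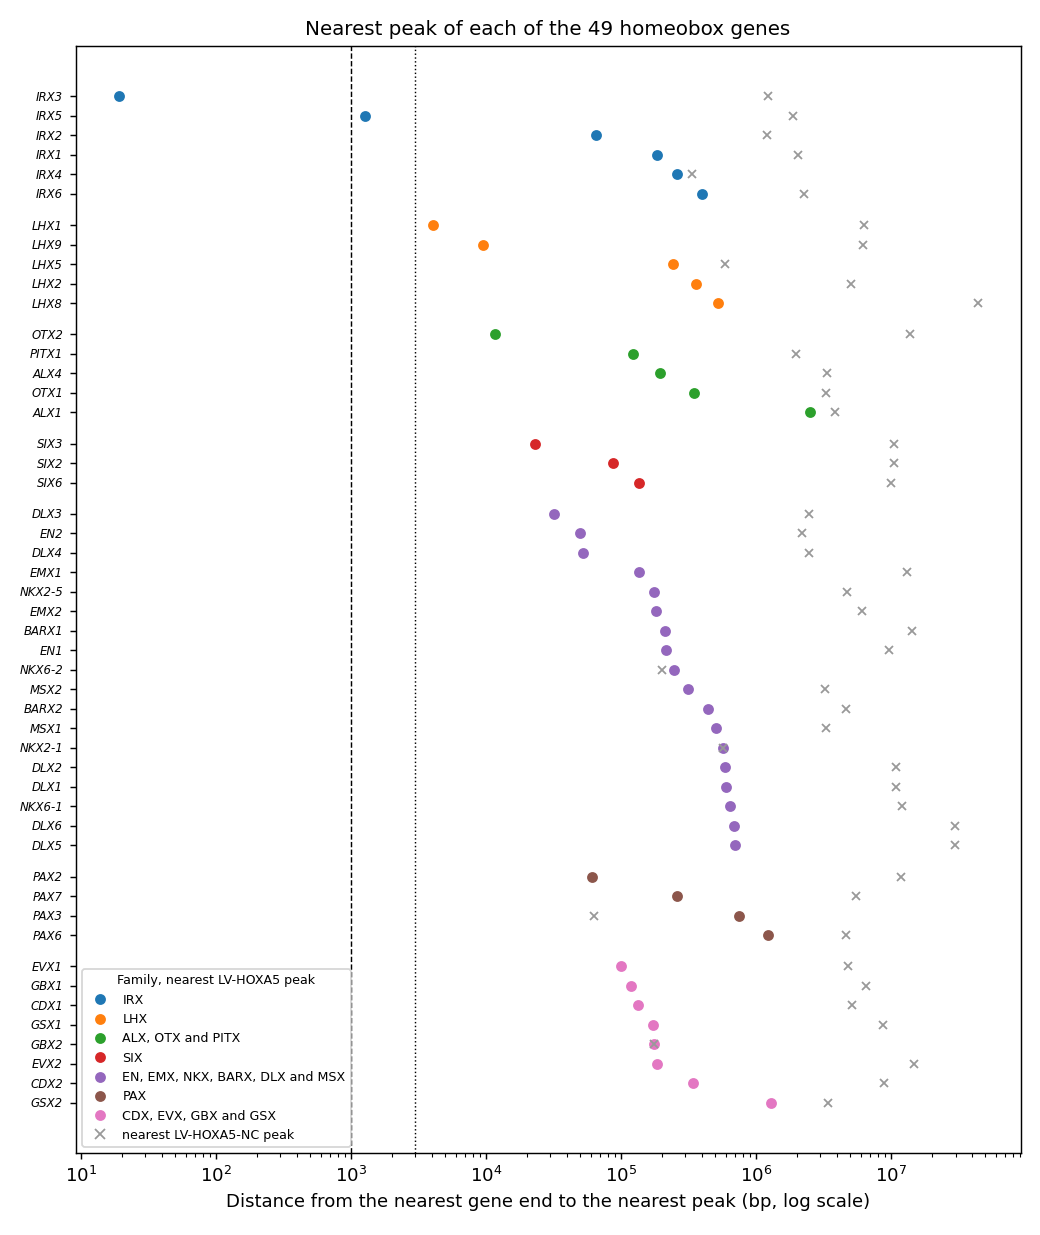
Distance from the nearest end of each member to its nearest LV-HOXA5 peak (coloured points by family) and nearest LV-HOXA5-NC peak (grey crosses), in bp on a log scale, with lines at 1 kb (dashed) and 3 kb (dotted). IRX3 alone lies left of the dashed line and IRX3 and IRX5 alone lie left of the dotted line; LHX1 is the next, at 4.02 kb.

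Over all 49 members the distance to the nearest LV-HOXA5 peak had a median of 194 kb (order-statistic interval 137 to 314 kb), beside 80.01 kb for the other protein-coding genes, 66.9 kb for the HOX cluster genes and 139 kb for 62 other homeobox genes outside the clusters. Within 10 kb, 4 members had a peak (8.16%, 2.27% to 19.6%) beside 20.7% of the other genes. The 62 other homeobox genes stood at 11.3% (4.66% to 21.9%) within 10 kb. That interval overlaps the members' interval and also holds the 20.7%, so it does not tell these 2 apart. Within 100 kb there were 13 members (26.5%, 14.9% to 41.1%) beside 54.9% of the other genes. The 62 other homeobox genes stood at 38.7% (26.6% to 51.9%) there, under the 54.9%, with an interval that overlaps that of the members. A low share within 100 kb was thus not particular to the members. Within 300 kb there were 31 members (63.3%, 48.3% to 76.6%) beside 78.9% of the other genes. At 1000 kb the shares were 93.9% (83.1% to 98.7%) and 95.9%. The members' share was thus the lower one at each of these distances, with the smallest gap at 1000 kb. There the members' interval holds the others' share, so it does not tell them apart.

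**Figure D5:**
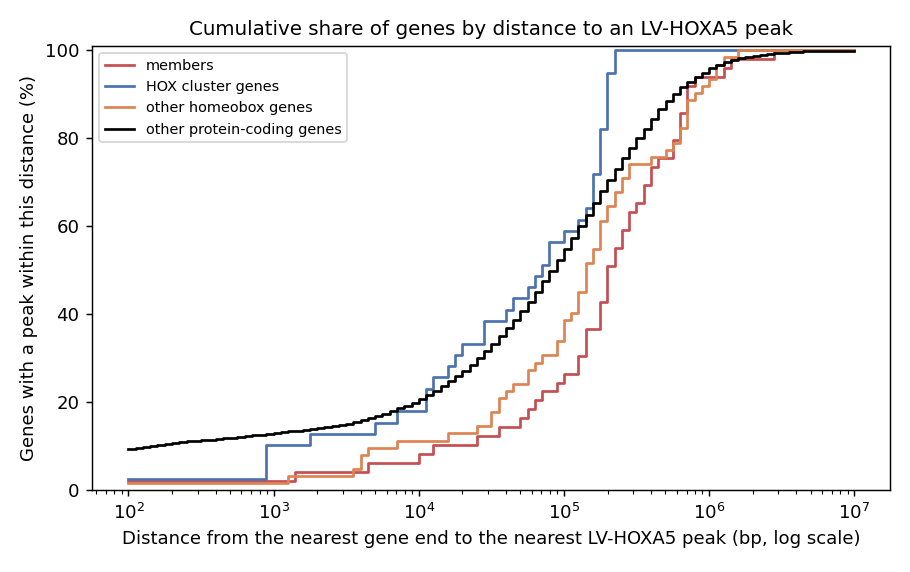
Cumulative share of genes (y axis, %) with an LV-HOXA5 peak within the distance on the x axis (bp, log scale), for the members (red), HOX cluster genes (blue), other homeobox genes (orange) and other protein-coding genes (black). At 100 kb the members stand at 26.5%, the other homeobox genes at 38.7%, the other protein-coding genes at 54.9% and the HOX cluster genes at 59.0%.

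The 49 members had 43 different nearest LV-HOXA5 peaks, with pileups of 10 to 44 (median 15) and folds of 3.26 to 8.44 (median 4.80). Of these, 17 (39.5%) lay within 1 kb of an end of a protein-coding gene that is no member, 1 was the peak at IRX3, and 25 (58.1%) lay over 1 kb from every protein-coding gene end. Of all 8043 LV-HOXA5 peaks, 26.3% lay within 1 kb of such an end. The control list came nearer than the LV-HOXA5 list for 3 members. PAX3 lay 63.2 kb from a control peak of 4 fragments and fold 4.15, GBX2 lay 176 kb from one, and NKX6-2 lay 202 kb from one of 9 fragments and fold 6.44. At GBX2, of the midbrain and hindbrain boundary, the nearest LV-HOXA5 peak (31, 8.44) overlapped that control peak (8, 5.35). The nearest peak of NKX2-1 (20, 5.92) overlapped a control peak (12, 6.97) as well, so that 2 of the 43 nearest LV-HOXA5 peaks (4.65%) overlapped a control peak, beside 5.52% of all LV-HOXA5 peaks. The members named in this paragraph were chosen after their values were seen. The median distance to a control peak was 4813 kb for the members and 4427 kb for the other genes.

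Members differ from other genes in their surroundings, which bears on any count by gene end. Their median length was 6.70 kb against 24.2 kb, and the next protein-coding gene stood at a median of 23.8 kb against 3.42 kb. Within 500 kb the members had a median of 6 protein-coding genes and 1 LV-HOXA5 peak, beside 13 genes and 3 peaks for the others, and 12 members (24.5%) had no peak there, beside 11.6%. A peak at a close neighbour counts for both genes. Among genes with no protein-coding neighbour within 10 kb, 1 of 30 members (3.33%, 0.0844% to 17.2%) and 8.85% of the 6879 others (8.19% to 9.55%) had an LV-HOXA5 peak within 1 kb. The gap to the other genes was smaller there, and the members' interval covered the others' share. That interval is also wider with fewer members, reaching 17.2% against 10.9% over all 49, and both rest on 1 gene, IRX3. How much of the overall difference goes with gene spacing, length or CpG content was not tested. For 24 of the 49 members another gene of any kind, coding or not, lay within 3 kb of an end.

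Peak density differed between chromosomes, and the members sat on 13 of them. Other protein-coding genes on these chromosomes had an LV-HOXA5 peak within 1 kb in 7.74% (chromosome 13) to 20.9% (chromosome 14) of cases. Weighted by the members' chromosomes, the others' share was 14.3%, and 22.9% on the wider count. On chromosome 2, with 10 members including the DLX1 and DLX2 pair, 0 had a peak beside 16.2% of the other genes. On chromosome 5, with 7 members including IRX1, IRX2 and IRX4, 0 had one beside 17.7%. On chromosome 16, 1 of 3 members, IRX3, had one beside 9.99%, and 2 of 3 did on the wider count beside 18.2%. With at most 10 members per chromosome, these counts are too small to be read as a deficit or an excess on any of them.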

How the data were processed

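The authors made CUT & Tag libraries with an anti-Flag antibody and called the peaks of each library separately with MACS 2.2.7.1 from paired-end fragments, using a q-value limit of 0.05 and no control library. The submitters' notes also name fastp, Bowtie2, deepTools, ChIPseeker and the build GRCh38, with no versions. The deposited tables hold for each peak a pileup signal, which is the unscaled number of fragments over the summit, a fold enrichment relative to local background, and the p-value and q-value as −log10. A further deposited form of these lists was not used here. The lowest listed pileup was 8 for LV-HOXA5 and 4 for the control.

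From these, distances from peak edges to gene ends were computed with the RefSeq genes of GRCh38.p14, the local background as (pileup + 1) / fold − 1, and overlaps at a minimum of 1 bp. The distance code was tested on simulated data. Intervals of shares are exact binomial (Clopper-Pearson) and those of pileups exact Poisson. No test between conditions was run. Members with a peak, the 5 nearest and the 5 farthest without one were to be named, and the others are given by family. The members and lists were chosen with earlier results of these data known. A planned comparison of CpG and motifs over the members was void, as under 80% had a promoter window. Alternatives were other peak thresholds, distances and parts of the peak, annotated starts, chromosomes 1 to 22, X and Y only, and peaks without a control peak. Python 3.11.15, NumPy 2.4.6, SciPy 1.17.1, pandas 2.3.3 and Matplotlib 3.10.9 were used. Peaks at some other homeobox genes and HOX partner genes are not reported here.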

Additional observations from a re-analysis of the deposited data

How the results depend on the processing

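Over 10 results, 40 alternatives left the value inside its interval, or unchanged for the fold of the 1 peak at IRX3, and 14 did not. Intervals were of counts, or of order statistics for the distance. The members' control counts were 0, so settings that only removed peaks or narrowed the window could not move them. The 40 therefore include alternatives whose outcome was fixed in advance. IRX3 and IRX5 kept their peaks under every peak threshold tried. With annotated starts only, where IRX3 and IRX5 have no start, 0 of 31 members had an LV-HOXA5 peak within 1 kb. For the other genes, the LV-HOXA5 share within 1 kb became 11.3% at a −log10 q-value of 3 or more, 6.96% at a fold at or above the median, 12.0% within 500 bp, 15.0% within 3 kb and 14.2% with starts only. On the wider count it became 18.0% at that q-value and 11.2% at that fold. At that fold, the others' shares of 6.96% and 11.2% lay inside the members' intervals, which reach 10.9% and 14.0%. In LV-HOXA5-NC, the others' share within 1 kb became 0.235% within 3 kb, 0.0379% with starts only, 0.0700% on chromosomes 1 to 22, X and Y and 0.0400% at that fold, and on the wider count 0.475% at that q-value and 0.340% at that fold. On chromosomes 1 to 22, X and Y, the control count within 1 kb fell from 27 to 14 other genes, because that setting drops peaks elsewhere. What lay behind the other changes was not tested.

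The median distance of the members was 258 kb at that q-value (others 103 kb), 211 kb without peaks that overlap a control peak (others 81.6 kb) and 194 kb by summit. No paired analysis was possible because each condition had 1 library. Depth limits the control, which had 12.4% of the fragments of LV-HOXA5 and a lowest listed pileup of 4.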
